A study of Mus musculus with 7 samples.

Results

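The cytotoxic granule genes are 10 genes chosen by name: the granzymes Gzma, Gzmb and Gzmk, the pore protein gene Prf1, the granule and lysosome genes Nkg7, Ctsw, Cst7, Srgn and Lamp1, and the transcription factor gene Eomes. All 10 were found by symbol among the 55364 genes counted. RNA came from CD4 T cells (gate CD45+CD3+CD4+) isolated from orthotopic lung tumours in C57BL/6 mice over 8 weeks old. Mice of the Control group (I-AbF/F, 5 libraries) carried loxP-flanked alleles of I-Ab, a chain of MHC class II, and no Cre. Mice of the Cre group (2 libraries, I-AbF/F Col1a2-cre) had the same alleles plus Cre under the promoter of the collagen gene Col1a2, which is active in fibroblasts. Both groups received tamoxifen, and the deletion was aimed at fibroblasts rather than at the sorted T cells. The question was what CD4 T cells express when tumour fibroblasts lack MHC class II.

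Cytotoxic lymphocytes kill by releasing the contents of modified lysosomes into the contact with a target cell. Perforin opens the target's membrane, and granzymes, which are serine proteases held in the granule on the proteoglycan serglycin, enter and cleave proteins that start cell death. Granules are best known from CD8 T cells and natural killer (NK) cells, but activated, regulatory and cytotoxic CD4 T cells carry some of the same proteins, granzyme B above all.

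Library totals ran from 1449739 to 1929899 counts. A count of 0 allows up to 3 counts, or 1.55 to 2.07 CPM (a gene's counts per 1000000 counts of its library) in a single library. That limit covers counting error only. Detection differed between the groups: 25.01% and 33.6% of the 9854 tested genes had no count in Cre replicates 1 and 2, against 1.14% in Control replicate 1 and 12.3% to 16.1% in the other Control libraries. Control replicate 1 had counts for 14849 genes and the other Control libraries for 10151 to 10843, while the Cre libraries had 9052 and 7896. Control replicate 5 alone held 10867 counts of Apoe, a gene in the list of macrophage and monocyte markers used here.

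None of the 10 genes passed the test of Cre against Control. The test was edgeR's quasi-likelihood test with Benjamini-Hochberg adjustment over 9854 genes, and 9 members entered it, since Eomes was too low. Over all genes tested, 0% were called higher in Cre and 0.0101% lower. Without adjustment, edgeR's p was under 0.05 for 1 member, Prf1, which was lower, beside 10.2% of all genes, and for no member that was higher, beside 1.41%. The authors' deposited table likewise has no member at an FDR under 0.05, beside 0.211% of its genes called higher and 3.64% called lower. DESeq2 also called 0 members, beside 7.23% of genes called lower and 0.417% called higher. For 7 of 9 tested members the fitted value was lower in Cre, against 60.1% of all genes, and that count was the same under each of 3 scalings. Their median log2 fold change, Cre minus Control, was −0.74, and that of all tested genes was −0.39. No member had both Cre libraries above or both below every Control library, a position held by 4.05% and 10.9% of tested genes.

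**Figure D1:**
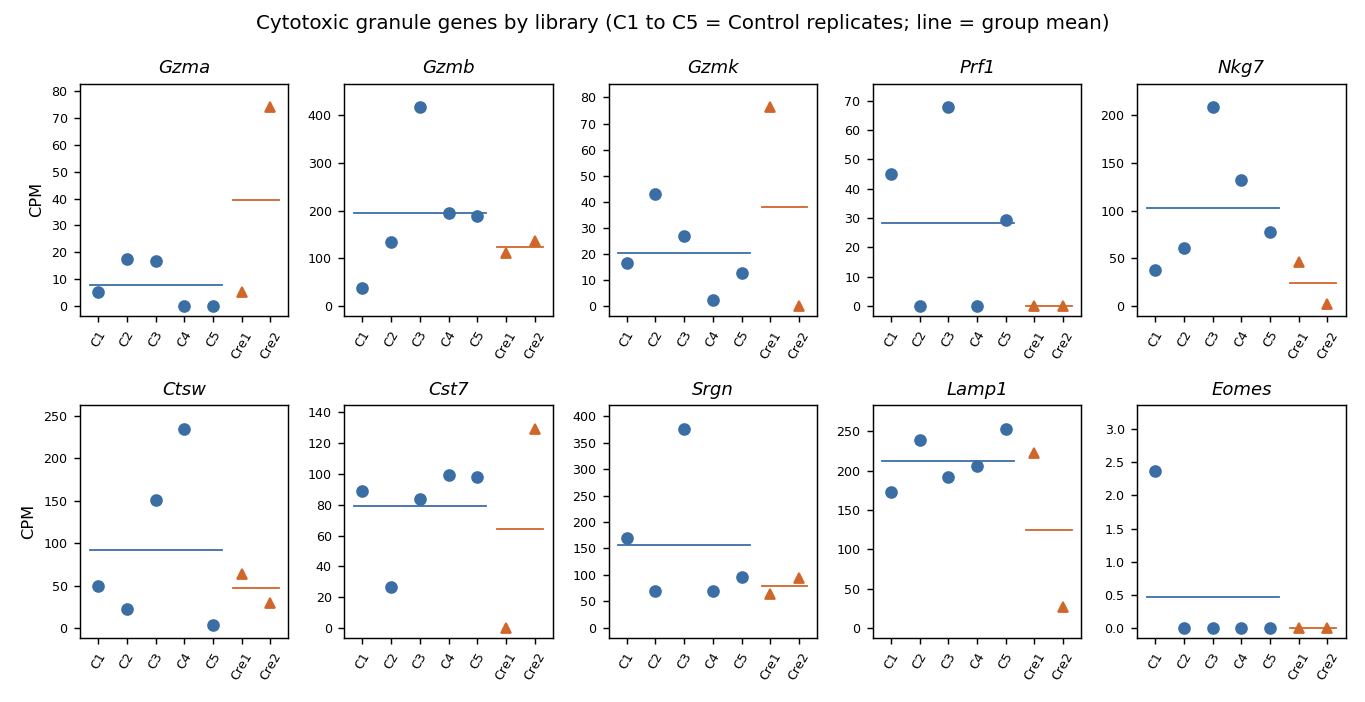
Level of each cytotoxic granule gene in every library, in CPM on linear axes that differ between panels. Circles are the 5 Control libraries, triangles the 2 Cre libraries and lines the group means. For Gzma, Gzmk, Nkg7, Cst7 and Lamp1 the Cre libraries lie far apart, and the Cre mean falls between them.

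Gzmb, the granzyme that cleaves after aspartate and activates caspases, was counted in every library. Its counts were 65, 198, 676, 336 and 307 in Control, against 213 and 199 in the Cre libraries. On the CPM scale the Control libraries ran from 38.6 to 416, with Control replicate 3 highest and replicate 1 lowest, and the Cre libraries stood at 110 and 137, inside that range. The log2 fold change was −0.62 ± 0.72 (SE; edgeR adjusted p = 0.799), −0.11 without Control replicate 3, and 0.078 with limma voom and library weights. The 2 Cre libraries were closer to each other, at 1.24-fold, than the highest and lowest Control libraries, at 10.8-fold. In a bulk sample, fewer cells expressing a gene and less of its RNA per cell cannot be told apart.

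Gzma, a granzyme that cleaves after basic residues, was low in all Control libraries. Its counts were 9, 26, 27, 0 and 0 across the Control libraries, and Cre replicates 1 and 2 had 10 and 107. Cre replicate 2, at 73.8 CPM, lay above every Control library, of which the highest had 17.5 CPM, while Cre replicate 1, at 5.18 CPM, lay inside their range. The log2 fold change of 2.30 ± 1.96 did not pass (edgeR adjusted p = 0.686), and it turned to −0.54 without Cre replicate 2.

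Gzmk, a second trypsin-like granzyme, lies near Gzma on chromosome 13 and showed the opposite order of the Cre libraries. It had 28, 64, 44, 4 and 21 counts in the Control libraries, while the Cre pair had 147 and 0. Cre replicate 1, at 76.2 CPM, was above all Control libraries, whose highest was 43.1 CPM, and at least 36.8-fold above the limit of 3 counts in Cre replicate 2. The group difference was 0.94 ± 1.75 on the log2 scale (edgeR adjusted p = 0.902), and it turned to −1.38 with limma voom and −1.09 with voom and library weights. Without Cre replicate 1 the remaining Cre library was at 0. The Cre counts of Gzma thus came mostly from replicate 2 and those of Gzmk from replicate 1.

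Summed, the 3 granzymes came to 60.5, 194, 459, 197 and 202 CPM in Control, and the Cre libraries had 192 and 211 CPM. The means were 223 ± 145 CPM (SD, n = 5) and 201 ± 13.7 CPM (SD, n = 2), and both Cre libraries lay within the Control range. Gzmb held 63.7% to 98.8% of those counts in Control. Its shares in Cre were 57.6% and 65.0%, of which the first lay below the Control range and the second at its low end. Further granzymes were at or near 0. Of the 7 other granzyme genes in the file (Gzmc, Gzmd, Gzme, Gzmf, Gzmg, Gzmm and Gzmn), 6 had no count in any library, and Gzmm had 17 counts, all in Control replicate 2.

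Prf1 encodes perforin, without which granzymes do not reach the target's cytosol. Its counts were 76, 0, 110, 0 and 48 in Control and 0 in both Cre libraries. The gene was therefore detected in 3 of 5 Control libraries and undetected in the other 4 libraries of the study, so the groups overlapped at 0. The Control mean was 28.4 ± 29.3 CPM, at least 32.0-fold above the limit of 3 counts over both Cre libraries together. The call failed (edgeR adjusted p = 0.427, unadjusted 0.0385; DESeq2 adjusted p = 0.0568), and the authors' deposited table gives an FDR of 0.130. Prf1 entered the test through its Control counts alone, as did the 13.7% of tested genes with no count in either Cre library. DESeq2 called Prf1 only when Control replicate 2 (adjusted p = 0.0236) or Control replicate 4 (0.0227) was left out, the libraries in which the gene was at 0.

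Nkg7, a membrane protein of cytotoxic granules needed for their efficient release, had 64, 90, 338, 228 and 126 counts in Control, against 90 and 3 in the Cre libraries. Cre replicate 2, at 2.07 CPM, was below every Control library, of which the lowest had 38.0 CPM, and Cre replicate 1, at 46.6 CPM, was not. The log2 fold change was −2.03 ± 1.18 (edgeR adjusted p = 0.462). It became −1.08 without Cre replicate 2 and −5.56 without Cre replicate 1 (edgeR adjusted p = 0.0724).

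Srgn encodes serglycin, the proteoglycan that packs granzymes and perforin and is also made by other blood cells. It had 287, 103, 610, 120 and 157 counts across the Control libraries, and Cre replicates 1 and 2 had 123 and 138. Control replicate 3 stood apart at 375 CPM, the remaining Control libraries ran from 69.4 to 170 CPM, and the Cre libraries had 63.7 and 95.2 CPM, of which the first was below every Control library. The difference of −0.97 ± 0.77 on the log2 scale (edgeR adjusted p = 0.647) came to −0.33 without Control replicate 3.

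Lamp1, a heavily glycosylated protein of lysosome and granule membranes whose exposure at the cell surface marks degranulation, was the most even of the members over the Control libraries. Its counts there were 292, 354, 312, 354 and 411, and its CPM varied 1.46-fold. The Cre libraries had 428 and 39 counts, or 222 and 26.9 CPM. Cre replicate 1 lay inside the Control range of 173 to 252 CPM and Cre replicate 2 lay 8.24-fold below Cre replicate 1. The log2 fold change of −0.74 ± 0.68 (edgeR adjusted p = 0.715) was 0.12 without Cre replicate 2 and −2.96 without Cre replicate 1 (edgeR adjusted p = 0.0516).

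Cst7 encodes cystatin F, an inhibitor of the cathepsins that activate granzymes. It had 150, 39, 136, 171 and 160 counts in the Control libraries, while the Cre pair had 0 and 187. Cre replicate 2, at 129 CPM, was above the Control maximum of 99.2 CPM, and at least 83.0-fold above the limit of 3 counts in Cre replicate 1, which lay below every Control library. The group means hid this split, with 79.3 ± 30.3 CPM in Control and 64.5 ± 91.2 CPM in Cre (log2 fold change −0.32 ± 1.38; edgeR adjusted p = 0.961). Without Cre replicate 1 the log2 fold change was 0.71.

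Ctsw encodes cathepsin W, a cysteine protease found in CD8 T cells and NK cells whose substrate in killing is not settled. It varied most over the Control libraries among the members that all of them expressed, with 83, 34, 245, 404 and 5 counts, a 76.3-fold range in CPM. The Cre libraries had 123 and 43 counts and stood at 63.7 and 29.7 CPM, inside the Control range. The log2 fold change was −0.97 ± 1.28 (edgeR adjusted p = 0.837), −0.26 without Control replicate 4, and 0.13 with limma voom or 0.057 with library weights added.

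Eomes, a T-box transcription factor that drives granzyme and perforin genes in CD8 T cells and NK cells, had 4 counts in Control replicate 1 and 0 in the other 6 libraries. Control replicate 1 was the library with the most genes detected. The Control mean of 0.475 CPM was under the limit of 0.888 CPM that a count of 0 allows over both Cre libraries, so no fold change is given.

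The 10 genes together held 628, 612, 1536, 938 and 759 CPM in Control replicates 1 to 5 and 588 and 494 CPM in Cre. Both Cre sums were below the lowest Control sum, by little for Cre replicate 1, and the means were 894 ± 382 CPM and 541 ± 66.3 CPM. The sum was not tested. Of single tested genes, 10.9% had both Cre libraries below every Control library, and no such share was taken for sums of genes. A lower fitted value in Cre was found for 60.1% of all tested genes. Control replicate 3 was the highest library for Gzmb, Prf1, Nkg7 and Srgn, and it had the highest sum. All 10 genes had counts in Control replicate 1, 7 to 9 in the other Control libraries and 7 in each Cre library.

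Several members were far apart between the Cre libraries themselves. Among members with at least 30 counts in the higher library of a pair, 4 of 8 (Gzma, Gzmk, Nkg7 and Cst7) differed by 10-fold or more between the Cre libraries, with values under 3 counts set to 3. Such differences went both ways, since Gzmk and Nkg7 were higher in Cre replicate 1 and Gzma and Cst7 in Cre replicate 2. Across the 10 pairs of Control libraries, 1 or 2 members differed as much. The same held for genes at large: 38.2% of tested genes with enough counts differed by 10-fold or more between the Cre libraries, and 8.61% to 22.4% between Control libraries. This comparison was chosen after the values were seen and was not tested.

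**Figure D2:**
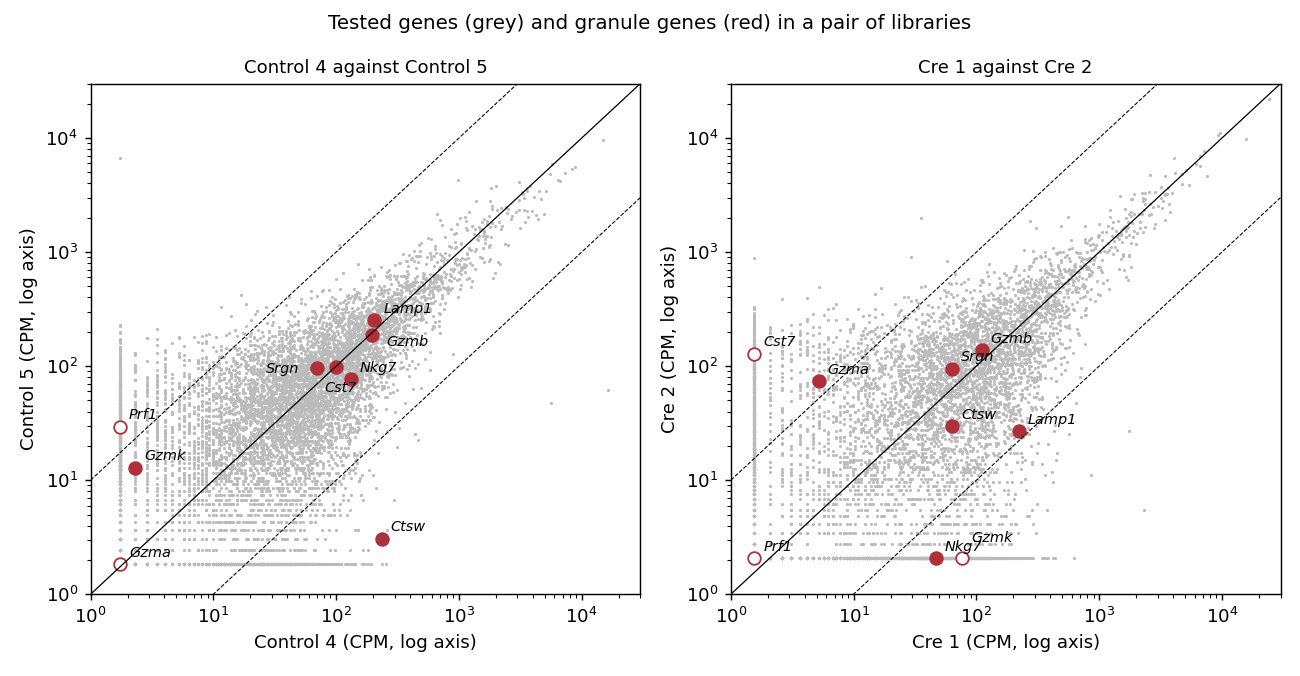
CPM of all tested genes (grey) and of the tested granule genes (red) in Control replicates 4 and 5, the Control pair with the highest share of 10-fold differences (left) and in the Cre pair (right), on log axes. Dashed lines mark 10-fold differences, and open circles are genes under 3 counts in 1 or both libraries, drawn at the limit of 3 counts. The Cre panel has Cst7 and Gzma past the upper dashed line and Gzmk and Nkg7 past the lower one.

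Transcripts were counted over regions at gene 3′ ends, placed here against GENCODE M21 on mm10. All counts of Gzma, Gzmb, Prf1, Nkg7 and Cst7 came from their only region, and those of Gzmk and Lamp1 from 1 of several. The Gzmb region (chromosome 14, minus strand, 56258589 to 56259418) has 581 of its 830 bases in the 3′ UTR and the remaining 249 past the gene's end. The Gzma region (chromosome 13, minus strand, 113093576 to 113093891) holds 67 bases of 3′ UTR, and the Gzmk region (113171359 to 113172035) 269 bases of 3′ UTR and 159 coding bases. The Prf1 region (chromosome 10, plus strand, 61303930 to 61304929) holds 751 bases of 3′ UTR. Srgn had 99.2% of its counts in 1 of 3 regions. Members shared no same-strand sequence with regions assigned to other genes.

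Ctsw, on the minus strand of chromosome 19, was the only member with 2 well-used regions. The region at its 3′ end, at 5464794 to 5465340, holds the 101 bases of 3′ UTR of its coding transcript. The upstream region, at 5465389 to 5465707, holds 241 coding bases and 78 bases of intron. Counts at the 3′ end were 53, 29, 120, 158 and 5 in Control, against 123 and 43 in the Cre libraries. Counts upstream were 30, 5, 125, 246 and 0 in Control and 0 in both Cre libraries.

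The upstream region thus held 36.1% (Wilson 95% interval 26.6 to 46.9), 14.7% (6.45 to 30.1), 51.0% (44.8 to 57.2) and 60.9% (56.1 to 65.5) of Ctsw counts in Control replicates 1 to 4. It held 0 of 5 counts in Control replicate 5, too few to tell. It held 0 of 123 in Cre replicate 1 (Wilson 95% interval 0 to 3.03%) and 0 of 43 in Cre replicate 2 (0 to 8.20%). These intervals cover counting error within a library only, not variation between libraries. With the 3′ region alone the log2 fold change of Ctsw turned from −0.97 to 0.08 (edgeR adjusted p = 0.991). The split by region was singled out after its values were seen and has no test. How often a second region of other genes was at 0 in both Cre libraries was not counted, so the Ctsw split has no background share. The 13.7% of tested genes with no count in either Cre library are whole genes, an unlike measure.

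**Figure D3:**
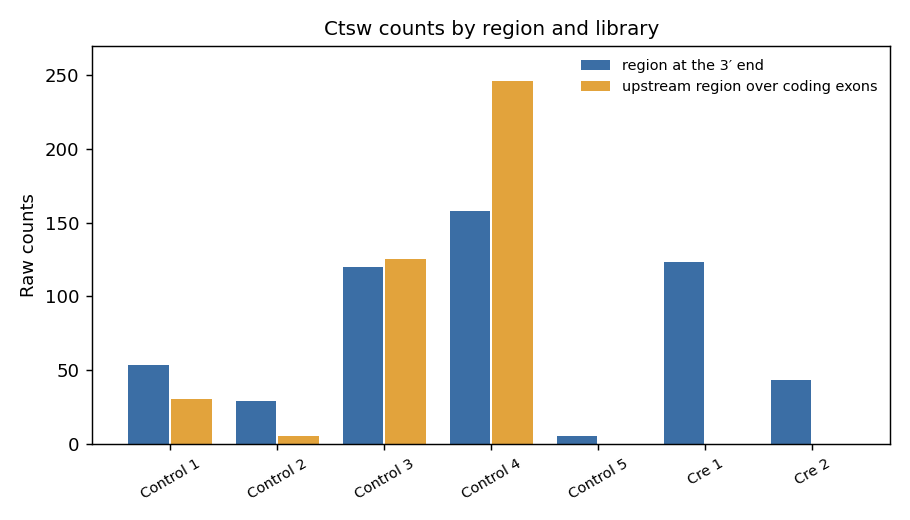
Raw counts of Ctsw in its region at the 3′ end (blue) and in the region upstream of it (orange), by library. The upstream region has 5 to 246 counts in Control replicates 1 to 4 and none in Control replicate 5 and in the Cre libraries.

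Cd8a, Cd8b1, Ncr1 and Klrb1c, markers of CD8 T cells and NK cells, were low in Control and at 0 in Cre. In Cre replicates 1 and 2, 25.01% and 33.6% of all tested genes had no count. Cd8a had 1, 0, 0, 1 and 0 counts in Control and 0 in Cre, and Cd8b1 had 15, 0, 2, 0 and 0 in Control and 0 in Cre. Ncr1, the NK cell receptor NKp46, was at 0 in all 7 libraries. Klrb1c, which encodes NK1.1, had 12, 4, 1, 28 and 0 counts in Control and 0 in Cre, and reached 16.2 CPM in Control replicate 4. Tyrobp, an adaptor of NK and myeloid cells, had 69 counts in Control replicate 5, 2 in Cre replicate 1 and none elsewhere. Klre1 had 12 counts in Control replicate 2 and 1 in Control replicate 4. Klrd1 and Klrc1, receptor genes listed among the other effector molecules, were not at 0 in Cre. Klrd1 had 131 and 105 counts there (67.9 and 72.4 CPM, against 26.3 ± 36.2 CPM in Control). Klrc1 had 135 and 44 (70.0 and 30.4 CPM, against 25.8 ± 23.1 CPM). Neither passed edgeR (adjusted p = 0.772 and 0.843). Klrk1, of the same list, had 10 and 0 counts in Cre. Of 15 NK and innate lymphoid genes, 6 had no count anywhere. The sum of the list was between 75.3 and 131 CPM in each Control library and was 13.5 and 114 CPM for Cre, mostly from Il1rl1 and Cd7, which T cells also express. Cd4 had 330 to 738 counts across the Control libraries, and Cre replicates 1 and 2 had 731 and 567. The sum of 12 CD4 T cell markers ran from 5861 to 7486 CPM over Control and was 7256 and 5642 CPM in the Cre libraries.

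Macrophage and monocyte markers, of a cell type that also makes serglycin, cystatin F and LAMP1, summed to 53.9, 185, 257 and 358 CPM in Control replicates 4, 1, 2 and 3, to 6876 CPM in Control replicate 5, and to 209 and 81.4 CPM in Cre. Apoe alone held 6676 of the 6876 CPM in Control replicate 5, where Lyz2 was at its Control median of 7.37 CPM. Csf1r had 2 counts in all, and Adgre1 none. In Control replicate 5, Srgn was at its Control median with 96.5 CPM, Lamp1 at its Control maximum with 252 CPM, and Cst7, at 98.3 CPM, just under its Control maximum of 99.2 CPM. Gamma-delta T cell markers had counts only in Control replicate 1, 14 in all, and mast cell and basophil markers had 12 and 4 counts, of Hdc alone, in Control replicates 1 and 4. Neutrophil markers summed to at most 2.69 CPM and dendritic cell markers to at most 11.9 CPM in any library. For B and plasma cell genes the Control sums ran from 18.6 to 353 CPM, with the highest in Control replicate 5, and the Cre sums were 94.8 and 41.4 CPM. Fibroblast genes came to 224 to 840 CPM in Control, again highest in Control replicate 5, with 346 and 60.7 CPM for Cre. Epithelial genes came to 0.614 to 25.2 CPM in Control, with 25.4 and 1.38 CPM for Cre. Both Cre libraries were below every Control library for 4 of 8 tested fibroblast genes and 2 of 7 tested macrophage and monocyte genes, beside 10.9% of all tested genes. DESeq2 called Col1a2 (adjusted p = 0.00033) and Bgn (0.0489) lower of the former, and Ccr2 (0.0159), which T cells also express, and Lyz2 (0.0481) of the latter, beside 7.23% of all genes. The part of such cells in the members' values was not tested.

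Granule delivery needs further proteins, and 21 of the 24 genes of that list in the file were tested. None passed edgeR. The fit placed 10 higher and 11 lower in Cre, and the median log2 fold change was −0.33. Unc13d, which encodes Munc13-4, the factor that primes granules for fusion, had 142, 166, 60, 230 and 318 counts in the Control libraries, while the Cre pair had 745 and 614. Both Cre libraries, at 386 and 424 CPM, lay above every Control library, where the mean was 112 ± 58.8 CPM. That position was held by 4.05% of all tested genes. The log2 fold change of 1.87 ± 0.54 did not pass edgeR (adjusted p = 0.359, unadjusted 0.0046). It passed DESeq2 (adjusted p = 0.0370), which called 0.417% of all genes higher. The DESeq2 call held in 2 of 7 repeats that left out a library (adjusted p from 0.0125 to 0.134), and the authors' deposited table gives an FDR of 0.118.

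None of 3 partners of Munc13-4 passed either test. Rab27a, the GTPase that docks granules, had 58, 43, 220, 64 and 108 counts in Control, against 0 and 302 in the Cre libraries. Stx11, a syntaxin of granule fusion, was at 48.3 ± 45.5 CPM in Control and at 74.6 and 221 CPM in the Cre libraries, and its chaperone Stxbp2 at 51.1 ± 32.2 CPM and at 171 and 0 CPM. Loss of any of these genes or of Unc13d impairs granule release in humans. Cre replicate 2 was the higher Cre library for Rab27a and Stx11, and replicate 1 for Stxbp2. Sytl2, a Rab27 effector, had 12, 150, 100, 4 and 75 counts across the Control libraries, and Cre replicates 1 and 2 had 0 and 2, below every Control library (edgeR adjusted p = 0.422, DESeq2 0.0184, and an FDR of 0.0258 in the authors' deposited table). The DESeq2 call of Sytl2 held in 4 of 7 repeats without a library. Of all tested genes, 10.9% had both Cre libraries below every Control library, and DESeq2 called 7.23% lower. Sytl3, of the same family, had 0 to 51 counts in Control and 0 in both Cre libraries (edgeR adjusted p = 0.427). It entered the test through Control alone.

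Among the 27 lysosomal membrane and hydrolase genes, all tested, none passed edgeR, while the fit placed 18 lower in Cre, with a median log2 fold change of −0.44. Cd63, a tetraspanin of granule and lysosome membranes like LAMP1, had 145, 402, 468, 285 and 182 counts in the Control libraries, while the Cre pair had 111 and 54. Both Cre libraries lay below every Control library, as for 10.9% of all tested genes. The log2 fold change of Cd63 was −1.94 ± 0.68 (edgeR adjusted p = 0.398, DESeq2 0.0685). Ctsc, the dipeptidyl peptidase that activates progranzymes, had 69, 134, 76, 0 and 4 counts across the Control libraries, and Cre replicates 1 and 2 had 0 and 2. These overlapped with the low Control libraries (edgeR adjusted p = 0.429).

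Inhibitors that guard a cell against its own granule proteases formed a list of 9 genes, with 7 tested. None passed edgeR. The fit placed 5 of them lower in Cre, or 4 with DESeq2 size factors, and the median log2 fold change was −0.56. Serpinb9, the inhibitor of granzyme B, had 10, 20, 132, 29 and 11 counts in Control and 0 in both Cre libraries, so the groups did not overlap. Of all tested genes, 10.9% had both Cre libraries below every Control library. Serpinb9 entered the test through Control alone, like the 13.7% of tested genes at 0 in both Cre libraries. Its Control mean of 24.8 ± 31.8 CPM was at least 28.0-fold above the limit over both Cre libraries. It missed the edgeR threshold (adjusted p = 0.391) and passed DESeq2 (adjusted p = 0.0119). That call also held in the 6 of 7 repeats without a library that gave an adjusted p. DESeq2 called 7.23% of all genes lower. Serpinb6b had 12, 47, 75, 28 and 0 counts in the Control libraries, while the Cre pair had 98 and 0. Cstb, cystatin B, had 24 to 247 counts in Control, against 1 and 47 in the Cre libraries (edgeR adjusted p = 0.513). Serpina3g, a serpin of activated lymphocytes, had 3 to 71 counts in Control, while the Cre pair had 18 and 0 (edgeR adjusted p = 0.719).

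**Figure D4:**
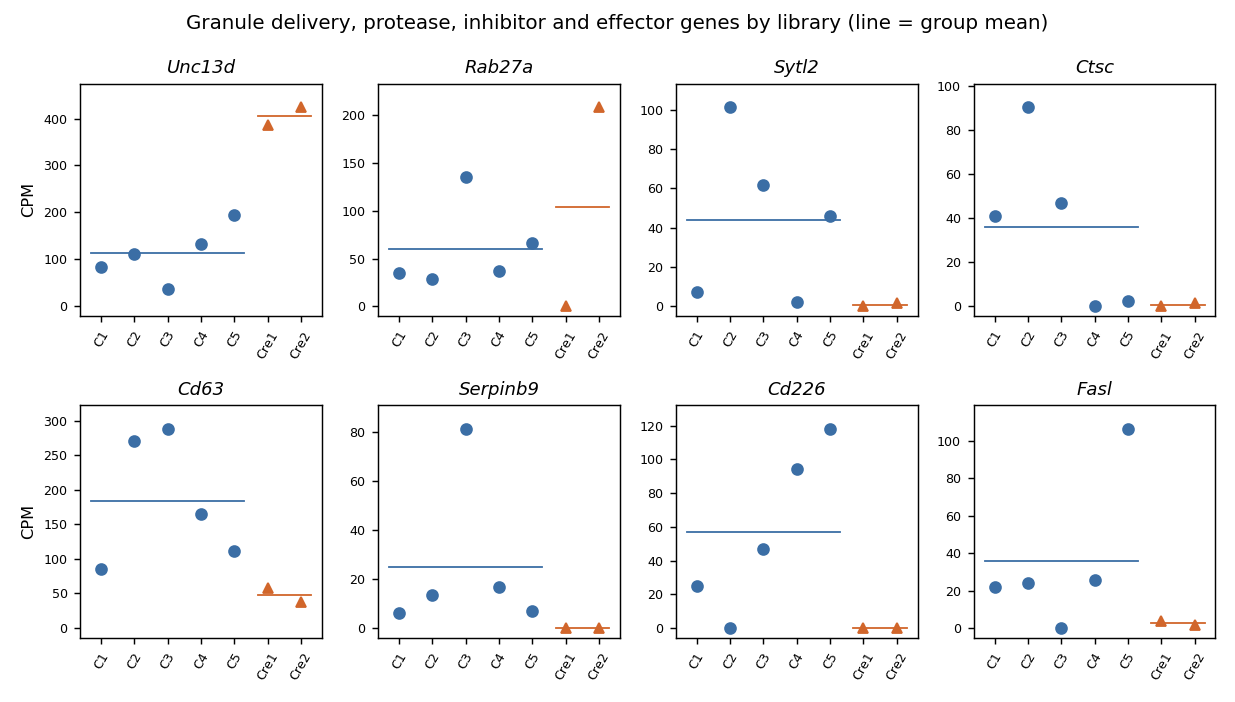
CPM by library of 8 genes of granule delivery, proteases, inhibitors and effectors, on linear axes that differ between panels. Circles are Control libraries, triangles Cre libraries and lines group means. Unc13d is the 1 gene shown with both Cre libraries above all Control libraries, and Sytl2, Cd63 and Serpinb9 have both below.

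Of 19 transcription factor genes of cytotoxic lymphocytes 17 were tested, and none passed edgeR. The fit placed 9 higher and 8 lower in Cre, or 8 and 9 with upper-quartile factors. Their median log2 fold change was 0.06, or −0.03 with upper-quartile factors. Tbx21, which encodes T-bet, the T-box relative of Eomes, had 264, 448, 314, 279 and 133 counts in the Control libraries, while the Cre pair had 422 and 66. Runx3, which drives cytotoxic programmes in CD8 T cells, had 292 to 633 counts in Control, against 387 and 264 in the Cre libraries. Zbtb7b, which encodes ThPOK and holds CD4 T cells to the helper lineage, had 116 to 283 across the Control libraries, and Cre replicates 1 and 2 had 448 and 159.

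The 3 factor genes of smallest p were Id2, Tcf7 and Tox. Id2, an inhibitor of E proteins in effector cells, had 787, 1334, 933, 817 and 1879 counts in the Control libraries, while the Cre pair had 461 and 576, with both Cre libraries below every Control library on the CPM scale (edgeR adjusted p = 0.422). Tcf7, which maintains naive and memory T cells, averaged 420 ± 150 CPM in Control, and the Cre libraries, at 793 and 706 CPM, were both above every Control library (edgeR adjusted p = 0.427). Among all tested genes, 10.9% had both Cre libraries below every Control library, as Id2 did, and 4.05% had both above, as Tcf7 did. Tox had 53 to 181 counts in Control, against 83 and 3 in the Cre libraries (edgeR adjusted p = 0.551).

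Other effector molecules gave 10 higher and 9 lower fitted values among 19 tested genes, or 8 and 11 with upper-quartile factors, and none passed edgeR. Their median log2 fold change was 0.01, and −0.03 with upper-quartile factors. Cd226, the receptor DNAM-1 that costimulates killing, had 42, 0, 76, 163 and 192 counts in Control and 0 in both Cre libraries, at least 64.0-fold below the Control mean (edgeR adjusted p = 0.367, DESeq2 0.0027, and an FDR of 0.0074 in the authors' deposited table). The DESeq2 call held without each of the 7 libraries in turn, beside 7.23% of all genes called lower. Cd226 entered the test through its Control counts alone, like the 13.7% of tested genes at 0 in both Cre libraries. Fasl, the ligand for killing without granules, had 37, 36, 0, 44 and 173 counts across the Control libraries, and Cre replicates 1 and 2 had 7 and 2, above the lowest Control library and below the others (edgeR adjusted p = 0.474). Il2rb, a receptor chain for interleukins 2 and 15, averaged 1333 ± 445 CPM in Control, against 783 and 735 CPM for the Cre libraries (edgeR adjusted p = 0.429).

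Ccl5, a chemokine stored in cytotoxic cells, had 239 to 658 counts in the Control libraries, while the Cre pair had 344 and 78. Klrg1, a receptor of terminal effector cells, had 23 to 456 counts in Control, against 133 and 141 in the Cre libraries. Ifng had 30, 0, 24, 0 and 43 counts across the Control libraries, and Cre replicates 1 and 2 had 217 and 0. As for Gzmk, the high Cre library for Ifng and Ccl5 was replicate 1, and no test was made of that likeness.

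**Figure D5:**
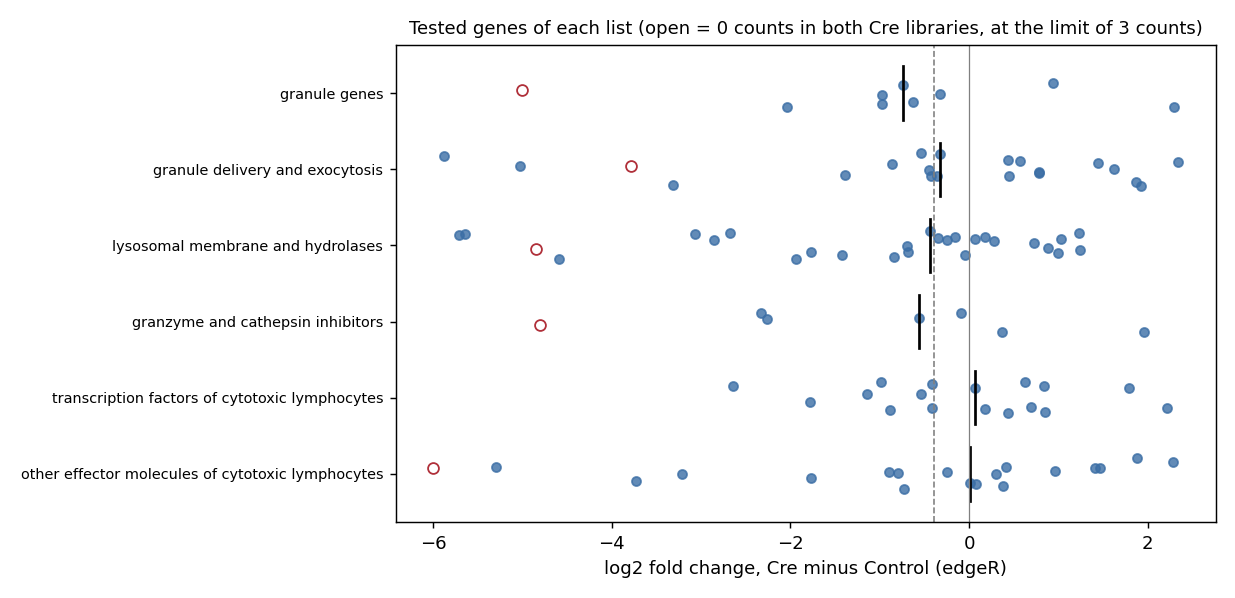
Log2 fold change (edgeR, Cre minus Control) of each tested gene in the list of granule genes and in the 5 related lists with tested genes. Open circles are genes at 0 in both Cre libraries, drawn at the limit of 3 counts, black bars are list medians and the dashed line is the median of all tested genes, −0.39. Genes of each list lie on both sides of 0, and no point passed the adjusted threshold.

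The genes nearest to each member in profile were found by the root mean square difference of log2 CPM over 7 libraries, with each gene centred on its own mean. Lamp1 was closest to Psme2, a proteasome activator subunit, at 0.22 log2 units, with 348, 487, 338, 518 and 393 counts in the Control libraries, while the Cre pair had 549 and 60. Srgn was closest to Usp24 (0.27), Nkg7 to Adprm (0.30), Prf1 to Phf20 (0.33) and Gzmb to Tor1aip1 (0.42). Cst7 was closest to Creb1 (0.49), Gzma to Rdh11 (0.51), Gzmk to Tulp3 (0.52) and Ctsw to Aagab (0.61). No member was among the 2 nearest genes of another member. Only 2 genes were taken per member from the 9854 tested, so that absence does not show whether members varied together.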

How the data were processed

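CD4 T cells were sorted, total RNA was isolated and 3′ UTR RNA-seq libraries were made, per the labels' protocols. Per the submitters' processing notes, the build was mm10 and the tools included HISAT2 2.1.0, FastQC 0.11.8 and DESeq2. How reads were counted, whether by strand, and with which gene models is not given in the sources used here. In 7 libraries, the deposited count table holds raw counts of 116000 regions. The authors' deposited comparison gives p-values and FDR, a fold change as a ratio, its log2 value and gene GC percent, per the file headers.

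Counts were summed per gene. The main test was edgeR 4.0.16 (R 4.3.3; TMM, robust quasi-likelihood F-test, filterByExpr with minimum count 10 and total 15, group as the only term), with Benjamini-Hochberg adjustment at 0.05 and the standard error taken from F. The p-values measure the spread between libraries named biological replicates in the series design; whether each came from a separate mouse, and how many cells were sorted, is not stated there, so part of that spread may be technical. The filter did not ask in which group a gene's counts lay. A gene at 0 in both Cre libraries could thus enter through Control alone, which favoured genes lower in Cre. Of the tested genes, 1351 (13.7%) were at 0 in both Cre libraries. No library pair was alike within sampling noise (chi-square over genes). Alternatives were other scalings, filters, region sums, DESeq2 1.42.0, limma 3.58.1 voom, a replicate block and each library left out. The fit was tested on simulated data.

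The members and the gene lists were chosen with earlier results of these data known. The rule for named genes took all members, the 3 genes of smallest p in each related list, up to 4 DESeq2 calls a list and 14 fixed genes; Stx11 and Stxbp2 were added after their values were seen, and 2 lysosomal genes that the rule took are not reported here. Of 221 list entries, 217 matched a gene; Vamp7 and 3 gamma-delta receptor genes were not analysed here. GENCODE M21 held 55104 of the genes, 99.4% with the same coordinates.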

Additional observations from a re-analysis of the deposited data

Results flagged for a closer look

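Among 54 sets of 5 Control values checked with Dixon's test, 14 had 1 library far from the other 4. Chance flags about 1 in 20 sets of independent, normally distributed values. CPM values are skewed, a set with counts in only 1 library is always flagged, and some sets share genes. The number of flags therefore cannot be set against that rate. Of the members, Cst7 was low at 26.3 CPM in Control replicate 2, and Eomes had its 2.37 CPM in Control replicate 1 alone. Control replicate 3 was high for Serpinb9 (81.2 CPM) and for the sum of the inhibitor list (583 CPM). Control replicate 2 was high for Gzmm and so for the other granzymes (11.5 CPM each) and for Sytl3 (34.4 CPM). Fasl was high at 106 CPM in Control replicate 5, and Ccl5 at 382 CPM in Control replicate 4. Among marker lists, CD8 T cell genes (9.49 CPM), gamma-delta T cell genes (8.3 CPM) and dendritic cell genes (11.9 CPM) were high in Control replicate 1. NK and innate lymphoid genes were low there (75.3 CPM). Macrophage and monocyte genes were high in Control replicate 5 (6876 CPM), through Apoe.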

How the results depend on the processing

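No member was called by edgeR under any scaling, filter, region sum, block or left-out library, nor by either form of voom or by DESeq2 on all libraries. DESeq2 without 1 library, added after seeing the data, called 0 to 3 members lower: 3 (Gzmk, Nkg7 and Lamp1) without Cre replicate 1, 1 (Cst7) without Cre replicate 2, and 1 (Prf1) without Control replicate 2 or 4. Over all genes, edgeR called 0 higher and 1 lower; no filter gave 15 and 28, DESeq2 35 and 607, voom 3 and 0, voom with library weights 0 and 0, and the replicate block 0 and 5. Leaving out a library gave 0 to 17 higher and 1 to 202 lower with edgeR, and 22 to 78 and 402 to 1506 with DESeq2. The counts of 17 and 202 were without Cre replicate 1, as were 78 and 1506; DESeq2 gave 22 and 890 without Cre replicate 2, and 402 lower without Control replicate 1. In log2 fold changes, the replicate block reversed Gzmb (0.73), Gzmk (−2.25) and Ctsw (0.33), and voom reversed Gzmk (−1.38) and Ctsw (0.13). With library weights voom reversed Gzmb (0.078), Gzmk (−1.09) and Ctsw (0.057), and the main region alone reversed Ctsw (0.079). The causes were not tested. Leaving out a library moved Gzma over −0.54 to 3.24 (DESeq2 −0.47 to 3.32), Gzmk over −8.02 to 1.96 (−7.23 to 2.03), Cst7 over −10.05 to 0.71 (−9.58 to 0.80) and Lamp1 over −2.96 to 0.12 (−2.88 to 0.18). Values below −7 rest on a remaining Cre library at 0 and depend on the prior count. The labels give numbers 1 and 2 in both groups without saying that they pair mice, and deviations of same-numbered libraries had correlations of 0.0036 and 0.0023. DESeq2 size factors shifted the all-gene median by 0.10, and upper-quartile scaling shifted it by −0.10. A lone Cre library was assumed to vary like Control. A stricter filter (at least 10 counts in 5 libraries) removed Gzma, Prf1 and some list genes, which then had no value.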

Other observations

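Lysosomal genes outside the rule for named genes, chosen after their values were seen, included 3 with both Cre libraries below every Control library. With Cd63, 4 of the 27 lysosomal genes held that position, beside 10.9% of all tested genes. Psap, the precursor of the saposins, had 416 ± 162 CPM in Control, against 256 and 200.04 CPM in the Cre libraries. Hexa, a gene of a lysosomal hydrolase, had 40 to 243 counts across Control, and Cre replicates 1 and 2 had 33 and 0. Lamtor1, which anchors mTORC1 signalling at the lysosome, had 33 to 103 counts across Control, and Cre replicates 1 and 2 had 0 and 18. None passed edgeR or DESeq2. Ctss, cathepsin S, had 198 ± 75.4 CPM in Control, against 411 and 313 CPM in the Cre libraries, and Ctsd, cathepsin D, had 248 ± 40.4 CPM and 144 and 277 CPM.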
